A study of Mus musculus with 16 samples.

Results

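The RNAs described are 10 of the 37 genes of the mouse mitochondrial genome that are listed among 54658 genes in each count table. They are the rRNAs mt-Rnr1 and mt-Rnr2, the mRNAs of respiratory complex I mt-Nd1, mt-Nd2, mt-Nd4 and mt-Nd5, those of complex IV mt-Co1, mt-Co2 and mt-Co3, and that of the ATP synthase mt-Atp6, taken by name and not by their values. They were measured by RNA-seq in C17.2α cells, a mouse neural cell line from cerebellum that was engineered to express the thyroid hormone receptor TRα1. All cells were grown in serum depleted of thyroid hormone, without T3, and were lysed 24 h after addition of the solvent DMSO or of a strobilurin, a fungicide that inhibits complex III of the respiratory chain. The groups were DMSO (2 libraries), azoxystrobin at 1000 nM (1 library) and picoxystrobin, pyraclostrobin and trifloxystrobin at 30, 100, 300 and 1000 nM (1 library per concentration), which makes 15 libraries of 1 cell line. The library labelled azoxystrobin at 100 nM held the same count as DMSO replicate 2 for every gene and was left out. Of 120 pairs of libraries this was the 1 identical pair, and the other pairs differed in at least 22355 genes. No concentration was replicated, so the 4 concentrations of a compound stand in for replicates. The p-values measure the spread between these libraries, which may be technical. In the comparisons with DMSO this spread also holds any effect of concentration. In the pairs of compounds it holds any difference between compounds that varies with concentration. A member that responds to concentration can therefore go uncalled in those comparisons.

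The mitochondrial genome of mammals is a small circular DNA that is transcribed by a single-subunit polymerase, encoded by the nuclear gene Polrmt, into long precursors that cover most of a strand. tRNAs lie between most of the rRNA and mRNA sequences, and their excision releases the individual RNAs, which are then polyadenylated or degraded at different rates. The 2 rRNAs form the RNA of the mitochondrial ribosome, and the mRNAs encode core subunits of the respiratory complexes and of the ATP synthase.

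In the GENCODE M21 annotation of GRCm38 (mm10), the heavy-strand order of the members is mt-Rnr1 (chrM:70-1024), mt-Rnr2 (chrM:1094-2675), mt-Nd1 (chrM:2751-3707), mt-Nd2 (chrM:3914-4951), mt-Co1 (chrM:5328-6872), mt-Co2 (chrM:7013-7696), mt-Atp6 (chrM:7927-8607), mt-Co3 (chrM:8607-9390), mt-Nd4 (chrM:10167-11544) and mt-Nd5 (chrM:11742-13565). All 10 lie on the plus strand of the annotation and have a single exon. The rRNA genes are separated from the mRNA genes by the leucine tRNA gene mt-Tl1, of 75 bases (chrM:2676-2750), whose sequence is shown because it is the junction between both classes of RNA.
mt-Tl1: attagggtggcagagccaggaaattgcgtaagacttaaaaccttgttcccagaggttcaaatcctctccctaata
The reading frames of mt-Nd4 and mt-Co3 stop 1 base into the last codon, after 459 and 261 full codons, and those of the other 6 mRNAs hold a complete stop codon.

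Several members have a copy in the nuclear genome, as is common for mitochondrial DNA. A row of 6 annotated pseudogenes on the minus strand of chromosome 1 (chr1:24611535-24616197) repeats all or part of 6 mitochondrial genes, 5 of them members. Gm28661 was identical to mt-Co2 over 681 of 681 aligned bases, Gm10925 to mt-Atp6 over 678 of 678 and Gm28437 to mt-Co3 over 783 of 783, whereas Gm28439 held 876 bases of mt-Nd4 and Gm29216 aligned to the last 483 bases of mt-Co1, with 1 difference (A1066T, counted from the first base of mt-Co1, with the base of mt-Co1 first). The first 60 bases of mt-Co2 and of its copy are shown as an example of a stretch that a read could not assign.
mt-Co2: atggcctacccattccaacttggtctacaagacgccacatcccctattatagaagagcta
Gm28661: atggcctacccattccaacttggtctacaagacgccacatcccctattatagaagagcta
The stretch of mt-Co1 that starts at position 1063 shows the base, in capitals, that sets its copy apart.
mt-Co1: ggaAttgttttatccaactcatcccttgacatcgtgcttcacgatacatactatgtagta
Gm29216: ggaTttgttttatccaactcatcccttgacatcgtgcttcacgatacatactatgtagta

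The share of a gene's windows of 50 bases that occur exactly in another annotated transcript, on either strand, was 100% for mt-Co2, 99.9% for mt-Co3 and 99.5% for mt-Atp6. It was 62.2% for mt-Nd4, 51.1% for mt-Co1, 8.19% for mt-Nd2, 7.61% for mt-Nd5, 1.04% for mt-Rnr2, and 0% for mt-Rnr1 and mt-Nd1. The 3 members with at least 99.5% of their windows shared were those with few or no counts. mt-Co3, a core subunit of cytochrome c oxidase, had 0 counts in every library, which allows at most 0.165 to 0.244 CPM (counts scaled to an equal library total) from 3 counts, as a limit of counting error only. mt-Atp6, the proton channel subunit of the ATP synthase, had 0 or 1 count, and mt-Co2, which carries the copper centre that receives electrons from cytochrome c, had 63 to 121 counts. Among the mRNA genes that are not members, mt-Nd3 (98% shared) had 0 to 2 counts and mt-Nd4l (98.8% shared) had 0. mt-Atp8 shared no window with an annotated transcript and yet had 0 counts. It shares 43 bases with mt-Atp6, and most of it lies in the 230 bases between mt-Co2 and mt-Atp6, where the chromosome 1 copies are 233 bases apart with no annotated gene between them. The copies were nearly empty as well, with 0 counts for Gm28661, Gm10925 and Gm28437, 0 or 1 for Gm29216, 1 to 17 for Gm28439 and 22 to 61 for Gm28438, the copy of mt-Nd3. How reads that match several places were handled is not given in the sources used here, and its part in these counts was not tested. mt-Co2, mt-Co3 and mt-Atp6 were under the minimum of 10 CPM on average, so tests cover 7 of the 10 members, and the plot of level against shared sequence sets these genes apart.

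**Figure D1:**
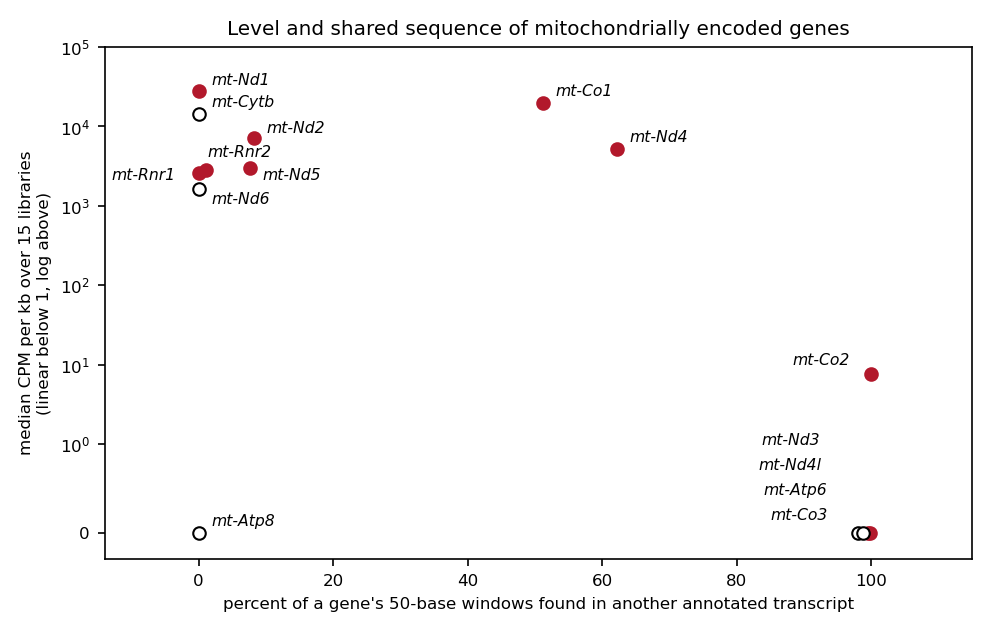
Median CPM per kb over 15 libraries (vertical axis, linear below 1 and logarithmic above) against the percent of a gene's 50-base windows found in another annotated transcript (horizontal axis), 1 point per mitochondrially encoded protein or rRNA gene, filled for the 10 members and open for 5 other genes. Genes with about 98% or more of their windows shared sit at or below 7.75 CPM per kb, and mt-Atp8 is at 0 with 0% shared.

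Together the 10 members held 7.25% (picoxystrobin 1000 nM) to 10.5% (picoxystrobin 300 nM) of the counts of a library, with 7.54% and 7.80% in the DMSO libraries. The 95% Wilson interval of such a share was at most 0.0161 percentage points wide on either side, and covers counting error only. In the pyraclostrobin libraries the share stayed between 9.15% and 9.33% while its makeup differed. There the 2 rRNAs took 0.724% and 0.568% of the library at 30 and 100 nM, then 1.29% and 1.78% at 300 and 1000 nM, and the mRNAs took 8.61% and 8.60%, then 7.87% and 7.37%. The total of the members thus stayed level while rRNA took more of the library and mRNA less. The total over all 37 mitochondrial genes did not stay level, with 11.6% and 11.2% of the library at 30 and 100 nM and 9.68% and 9.50% at 300 and 1000 nM, since mt-Cytb and mt-Nd6 are not members. The plot of library shares shows the change in makeup as a wider base of the last 2 pyraclostrobin bars.

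**Figure D2:**
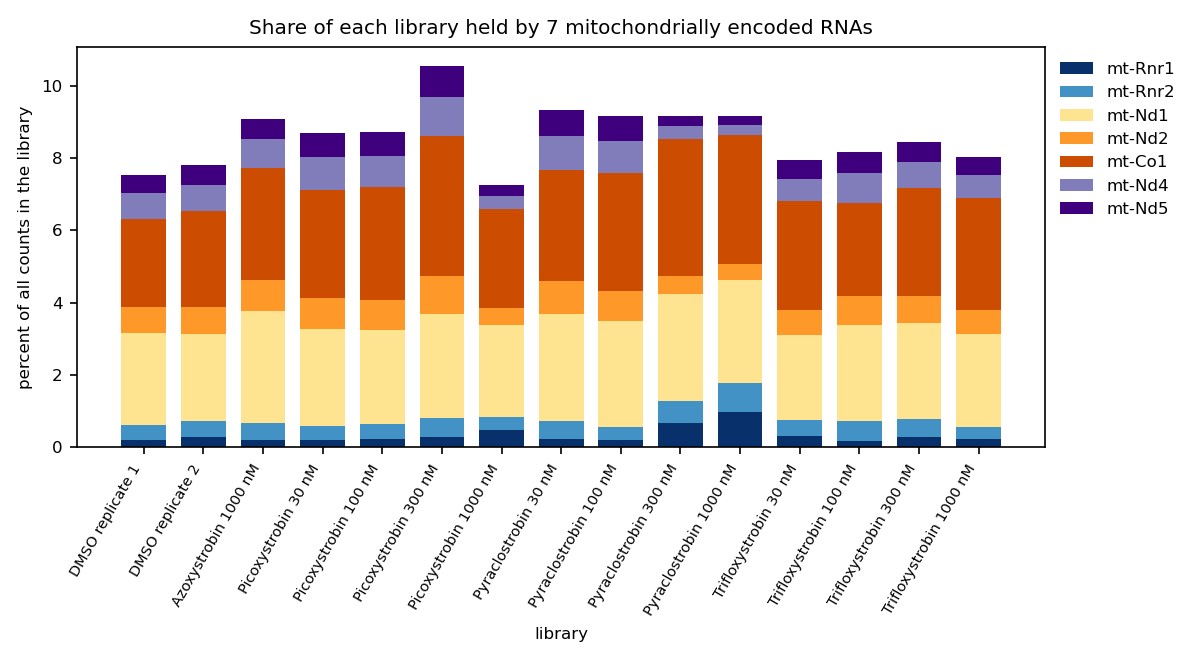
Percent of all counts of a library (vertical axis) held by 7 members, stacked in their order on the mitochondrial genome, for each of the 15 libraries (horizontal axis). The rRNA layers at the base reach 1.78% at pyraclostrobin 1000 nM, against 0.617% and 0.738% in the DMSO libraries, and the mt-Nd4 and mt-Nd5 layers at the top are thinnest in the same library.

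Per kb of gene, mt-Nd1 had the highest level (median 27811 CPM per kb, range 24538 to 32362) and mt-Co1 the next (19886, range 15872 to 25087). mt-Nd2 followed at 7245 CPM per kb, mt-Nd4 at 5255, mt-Nd5 at 3022, mt-Rnr2 at 2866 and mt-Rnr1 at 2561. The ranges of mt-Nd1 and mt-Co1 lay above those of the other 5 and overlapped each other, and the other 5 also overlapped. The order depends on the sequence counted. Per 1000 windows that occur in no other annotated transcript, mt-Co1 came first, at a median of 42031 CPM, before mt-Nd1 at 29312 CPM, and mt-Nd4, at 14426 CPM, came before mt-Nd2, at 8283 CPM. By either measure the rRNAs had the lowest medians of the 7. Whether rRNA was removed before library preparation is not given in the sources used here.

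Of the rRNAs, mt-Rnr1, the RNA of the small ribosomal subunit, had 2084 and 2979 CPM in DMSO and 2065 CPM at azoxystrobin 1000 nM. It rose with pyraclostrobin, from 2445 CPM at 30 nM and 2044 CPM at 100 nM to 6826 CPM at 300 nM and 9850.3 CPM at 1000 nM. Picoxystrobin gave 2046, 2402, 2796 and 4750.1 CPM at 30, 100, 300 and 1000 nM, and trifloxystrobin gave 3008, 1815, 2831 and 2196 CPM. Pyraclostrobin at 300 and 1000 nM and picoxystrobin at 1000 nM were therefore above all other libraries, where mt-Rnr1 was at most 3008 CPM. mt-Rnr2, the RNA of the large subunit, had 4086 and 4402.5 CPM in DMSO, 4728 CPM with azoxystrobin and 4796, 3639.8, 6064 and 7963 CPM with rising pyraclostrobin. With picoxystrobin mt-Rnr2 stood at 3739.6, 3983, 5217 and 3509.9 CPM, so that the library at 1000 nM, high for mt-Rnr1, was low for mt-Rnr2. With trifloxystrobin it stood at 4534, 5395, 4965 and 3394 CPM. The ratio of mt-Rnr2 to mt-Rnr1 counts was 0.888 and 0.808 at pyraclostrobin 300 and 1000 nM and 0.739 at picoxystrobin 1000 nM, and between 1.48 and 2.97 in the other 12 libraries.

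Of the mRNAs of complex I, the NADH dehydrogenase, mt-Nd4 and mt-Nd5 encode subunits of its proton pumping arm. mt-Nd4 had 6976 and 6979 CPM in DMSO and 7888 CPM with azoxystrobin. Pyraclostrobin gave 9506 and 8819 CPM at 30 and 100 nM, above DMSO, and 3409 and 2623 CPM at 300 and 1000 nM, below DMSO. Picoxystrobin gave 9179, 8724 and 10821 CPM up to 300 nM and 3584 CPM at 1000 nM, and trifloxystrobin gave 6268, 8257, 7242 and 6356 CPM. Because 62.2% of mt-Nd4 is repeated on chromosome 1, its counts can rest on the 502 windows of its own at the 3' end. mt-Nd5 followed the same course, with 5179.6 and 5523 CPM in DMSO, 5512 CPM with azoxystrobin, 7146, 6872, 2829 and 2449 CPM with rising pyraclostrobin, and 6791, 6495, 8539 and 3061 CPM with rising picoxystrobin. Its trifloxystrobin values were 5145, 5831, 5382 and 4986 CPM. mt-Nd2, also a subunit of the membrane arm, had 7181 and 7334 CPM in DMSO, 8527 CPM with azoxystrobin, 9108, 8409.9, 5185 and 4474 CPM with pyraclostrobin, and 8578, 8225, 10364 and 4664 CPM with picoxystrobin. With trifloxystrobin mt-Nd2 had 6941, 8069, 7521 and 6613 CPM. The 3 mRNAs were lowest in the libraries where mt-Rnr1 was highest. mt-Nd1, the subunit at the junction of the peripheral and membrane arms, did not share this course. Its values were 25406 and 23964 CPM in DMSO, 30970.4 CPM with azoxystrobin, 29586, 29169.9, 29441 and 28394 CPM with pyraclostrobin, and 26928, 26048, 28947 and 25544 CPM with picoxystrobin. Trifloxystrobin gave 23483, 26494, 26616 and 25676 CPM, so that mt-Nd1 differed little between all 15 libraries.

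Of complex IV, mt-Co1, the catalytic subunit with the haem and copper site, had 24522 and 26798 CPM in DMSO and 31017 CPM with azoxystrobin. With pyraclostrobin it had 30724, 32716.5, 37832 and 35774 CPM, with picoxystrobin 29752, 31235, 38759.5 and 27368 CPM, and with trifloxystrobin 30042, 25720.3, 29826 and 31172 CPM. Every exposed library except trifloxystrobin 100 nM was above both DMSO libraries. How many of all genes did so was not counted. mt-Co2 had 5.01 CPM in both DMSO libraries and between 4.34 and 7.21 CPM elsewhere. The plot of CPM by concentration shows both directions side by side.

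**Figure D3:**
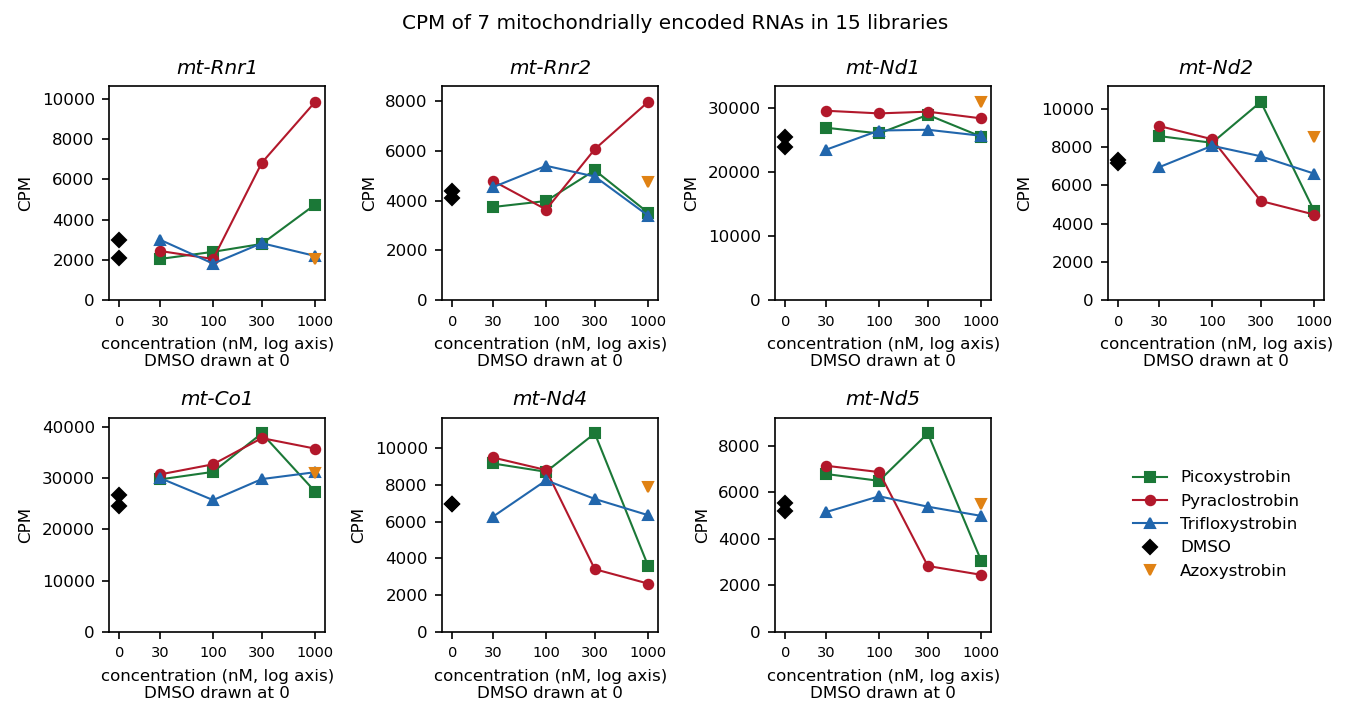
CPM (vertical axes, from 0) of 7 members against concentration (horizontal axes, nM, logarithmic, with the DMSO libraries drawn at the left as 0), 1 point per library. mt-Rnr1 climbs to 9850.3 CPM at pyraclostrobin 1000 nM while mt-Nd4 drops to 2623 CPM, and mt-Nd1 remains between 23483 and 30970.4 CPM in all 15 libraries.

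Seen along the mitochondrial genome, the change from the DMSO mean at pyraclostrobin 1000 nM was 1.96 on the log2 scale of CPM for mt-Rnr1 and 0.91 for mt-Rnr2, on one side of mt-Tl1. On the other side it was 0.20 for mt-Nd1, -0.70 for mt-Nd2, 0.48 for mt-Co1, -1.41 for mt-Nd4 and -1.13 for mt-Nd5. The values therefore did not fall evenly with distance from the start of transcription, since mt-Co1 stood above mt-Nd2. Picoxystrobin at 1000 nM gave 0.91 for mt-Rnr1, -0.27 for mt-Rnr2, 0.05 for mt-Nd1, -0.64 for mt-Nd2, 0.09 for mt-Co1, -0.96 for mt-Nd4 and -0.81 for mt-Nd5. Beyond the members, mt-Cytb, the mRNA of the only mitochondrially encoded subunit of complex III, was at -2.39 and -1.34 in these libraries. mt-Nd6, which is transcribed from the other strand and overlaps mt-Nd5 by 14 bases, was at -1.45 and -0.99. Whether counting used the strand is not given in the sources used here, so reads in those 14 bases cannot be told apart. The ratio of mt-Rnr1 to mt-Nd4 counts, both from 1 library, went from 0.23 at pyraclostrobin 100 nM to 2.00 at 300 nM and 3.76 at 1000 nM, and was 1.33 at picoxystrobin 1000 nM, 0.30 and 0.43 in DMSO, and at most 0.48 in the other libraries. The ratio of mt-Nd4 to mt-Nd5 moved less, from 1.07 to 1.43 over all 15 libraries. It was lowest at pyraclostrobin 1000 nM (1.07), picoxystrobin 1000 nM (1.17) and pyraclostrobin 300 nM (1.21). The next value was 1.22 at trifloxystrobin 30 nM.

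**Figure D4:**
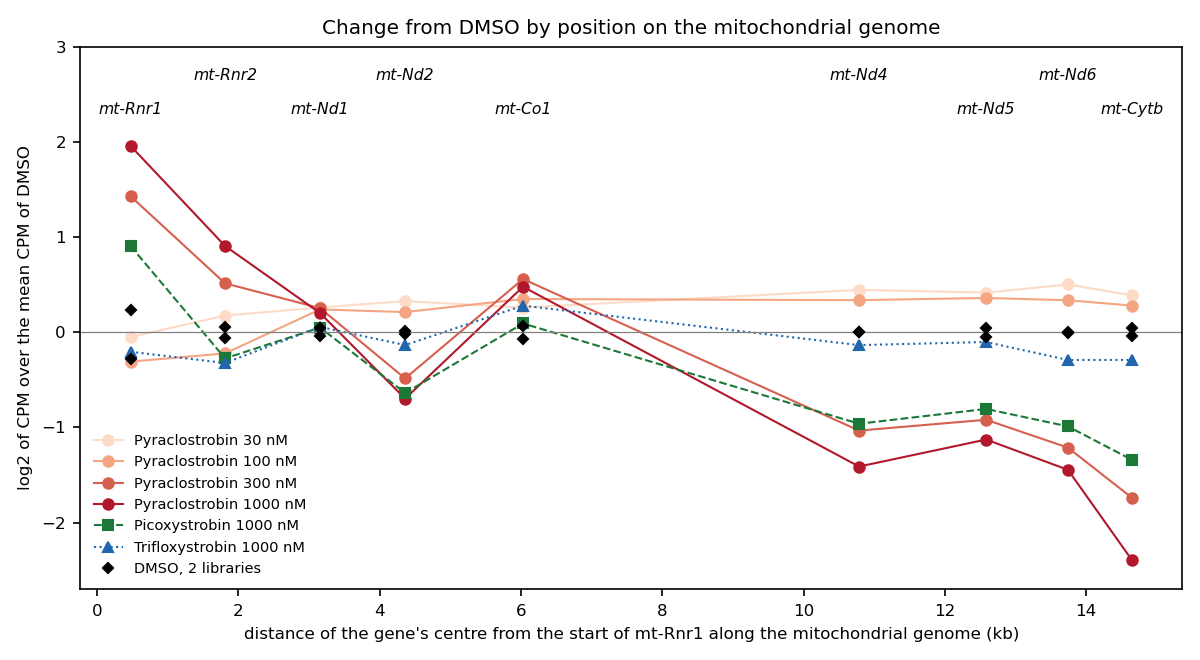
Log2 of CPM over the mean CPM of the 2 DMSO libraries (vertical axis) against the distance of a gene's centre from the start of mt-Rnr1 (horizontal axis, kb), for 7 members and for mt-Nd6 and mt-Cytb. Lines join the genes of 1 library (pyraclostrobin at 4 concentrations, picoxystrobin and trifloxystrobin at 1000 nM), and diamonds are the DMSO libraries. At pyraclostrobin 1000 nM the line runs from 1.96 at mt-Rnr1 to -2.39 at mt-Cytb, with mt-Co1 at 0.48 in between.

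The concentration trend, a slope on log10 concentration fitted for each compound over the 4 concentrations, was tested with edgeR's quasi-likelihood test and Benjamini-Hochberg adjustment over all 9758 genes with an average over 10 CPM. With pyraclostrobin, mt-Rnr1 rose by 1.47 on the log2 scale per 10-fold concentration (SE 0.277, adjusted p = 0.0368) and mt-Nd4 fell by 1.40 (SE 0.340, adjusted p = 0.0492). That is 1 rising member of 7 tested beside 1.62% of all genes, and 1 falling member beside 1.34% of all genes. The slopes of mt-Nd5 (-1.19, SE 0.318, adjusted p = 0.0639), mt-Nd2 (-0.77, SE 0.242, adjusted p = 0.0991) and mt-Rnr2 (0.54, SE 0.221, adjusted p = 0.185) missed the threshold. Those of mt-Co1 (0.15, SE 0.169) and mt-Nd1 (-0.05, SE 0.114) were within about 1 SE of 0. The median slope of the 7 members was -0.05, against 0.00045 over all genes, since members of either sign cancel. Of the mRNAs outside the members, mt-Cytb fell by 2.11 and mt-Nd6 fell by 1.48 (adjusted p = 0.0368 for both). The calls were close to the threshold. Without DMSO replicate 1 or 2, picoxystrobin 100 nM, pyraclostrobin 30, 300 or 1000 nM, or trifloxystrobin 300 or 1000 nM, mt-Rnr1 was no longer called (8 of 15 libraries left out, adjusted p up to 0.581), and mt-Nd4 was lost without these and without pyraclostrobin 100 nM or trifloxystrobin 30 or 100 nM (11 of 15). mt-Cytb was lost without the same 8 libraries as mt-Rnr1, and mt-Nd6 without these and pyraclostrobin 100 nM (9 of 15). The slopes themselves stayed between 1.32 and 2.22 for mt-Rnr1 and between -1.76 and -1.27 for mt-Nd4 whichever library was left out, and that of mt-Rnr2 ran from 0.30 without pyraclostrobin 1000 nM to 1.10 without pyraclostrobin 30 nM.

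No member was called in the picoxystrobin trend, where edgeR called 0% of all genes. At an unadjusted p under 0.05 it was 1 member, mt-Rnr1 (slope 0.75, SE 0.275, adjusted p = 0.433), beside 11.3% of all genes. The other slopes were -0.67 for mt-Nd4, -0.53 for mt-Nd5, -0.42 for mt-Nd2, and between -0.03 and 0.03 for mt-Nd1, mt-Co1 and mt-Rnr2. These negative slopes rest on the library at 1000 nM. Without it they became 0.32 for mt-Nd4, 0.41 for mt-Nd5 and 0.35 for mt-Nd2. The trifloxystrobin trend called 0% of all genes and no member, also without adjustment (0.789% of all genes), with member slopes from -0.27 for mt-Rnr2 to 0.08 for mt-Nd1.

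**Figure D5:**
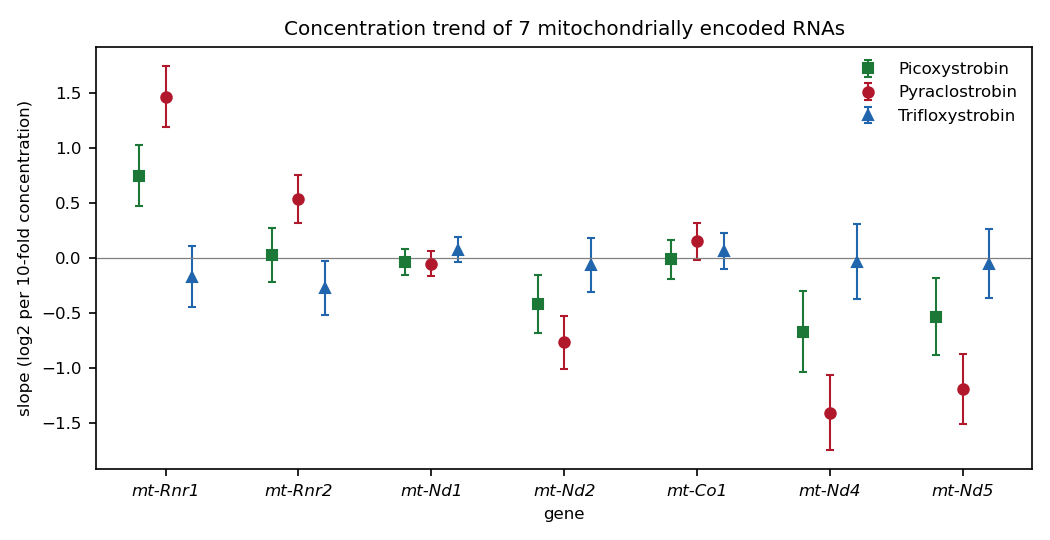
Slope of log2 expression per 10-fold concentration (vertical axis) for 7 members (horizontal axis) and 3 compounds, with bars of 1 SE from edgeR's quasi-likelihood fit. For mt-Rnr1 the slopes are 1.47 with pyraclostrobin, 0.75 with picoxystrobin and -0.17 with trifloxystrobin, and for mt-Nd4 they are -1.40, -0.67 and -0.03.

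The difference between the trends of 2 compounds, added after the data were seen, passed the adjusted threshold for no member and for 0% of all genes in each of 3 pairs. The slope of mt-Rnr1 was 1.63 lower with trifloxystrobin than with pyraclostrobin (difference -1.63, 95% interval -2.48 to -0.79, adjusted p = 0.351) and that of mt-Nd4 was 1.37 higher (interval 0.33 to 2.41, adjusted p = 0.398). Here 4 members had an unadjusted p under 0.05, beside 10.2% of all genes. Between pyraclostrobin and picoxystrobin no member did, beside 12.5% of all genes, and the interval of the difference still reached from -0.12 to 1.56 for mt-Rnr1 and from -1.82 to 0.35 for mt-Nd4. Between trifloxystrobin and picoxystrobin it was 1 member, mt-Rnr1 (-0.92, interval -1.76 to -0.07, adjusted p = 0.993), beside 1.6% of all genes.

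Compared with DMSO over all concentrations, no member was called for any compound by edgeR. For pyraclostrobin, where 2.12% of all genes were called, mt-Rnr1 had a log2 change of 1.06 (SE 0.518, adjusted p = 0.212; 0.58 without the library at 1000 nM), mt-Co1 one of 0.42 (SE 0.163, adjusted p = 0.132) and mt-Nd1 one of 0.25 (SE 0.114, adjusted p = 0.190). Of these, mt-Co1 and mt-Nd1 had an unadjusted p under 0.05, beside 25.8% of all genes. For picoxystrobin, with 0.041% of all genes called, mt-Co1 was the 1 member under an unadjusted p of 0.05 (0.35, SE 0.162, adjusted p = 0.260), beside 19.2% of all genes. Azoxystrobin called 0% of genes. There mt-Nd1 (0.35, SE 0.158, adjusted p = 0.999) was the 1 member under an unadjusted p of 0.05, beside 1.65% of all genes, and the single library was set against the spread of the other compounds. With trifloxystrobin 0% of genes were called and no member had an unadjusted p under 0.05 (1.27% of all genes), with log2 changes from -0.04 for mt-Rnr1 to 0.18 for mt-Co1. These comparisons share the DMSO libraries. An average over concentrations also mixes values on both sides of DMSO, as for mt-Nd4 with pyraclostrobin, whose mean change was -0.18 (SE 0.466).

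The compounds share the strobilurin group and differ in the rest of the molecule. They were compared in 3 pairs at matched concentrations, with concentration as a block and without DMSO, over 9752 genes. No member was called by edgeR. mt-Rnr1 was 0.83 lower on the log2 scale with trifloxystrobin than with pyraclostrobin (difference -0.83, 95% interval -1.55 to -0.12, adjusted p = 0.231), the 1 member with an unadjusted p under 0.05 (18% of all genes), where 0.0308% of all genes were called. In that pair mt-Nd4 differed by 0.38 (interval -0.33 to 1.10) and mt-Nd5 by 0.27 (interval -0.38 to 0.93). Pyraclostrobin and picoxystrobin differed by 0.63 for mt-Rnr1 (interval -0.07 to 1.33), by 0.42 for mt-Rnr2 (interval -0.07 to 0.91) and by -0.50 for mt-Nd4 (interval -1.21 to 0.21), where 0.0205% of all genes were called and no member had an unadjusted p under 0.05 (11.7% of all genes). Leaving out 1 library moved these differences to between 0.28 and 0.86 for mt-Rnr1 and 0.09 and 0.62 for mt-Rnr2, both lowest without pyraclostrobin 1000 nM, and to between -0.81 (without pyraclostrobin 30 nM) and -0.18 (without pyraclostrobin 300 nM) for mt-Nd4. Trifloxystrobin and picoxystrobin differed by -0.21 for mt-Rnr1 (interval -0.90 to 0.49) and by -0.12 for mt-Nd4 (interval -0.83 to 0.59), with 0% of genes called and no member under an unadjusted p of 0.05 (8.63% of all genes). DESeq2 called members in 1 of all 13 comparisons, the pyraclostrobin trend, where it called mt-Nd2 and mt-Nd5 beside mt-Rnr1 and mt-Nd4. In that trend DESeq2 also called more of all genes than edgeR did, so the added members are not read as support.

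The nuclear genes for the upkeep and transcription of mitochondrial DNA and for the processing of its RNA showed few calls. Of 23 genes of the first list, 14 were tested. Pprc1, a coactivator of the PGC-1 family, fell with picoxystrobin (by 0.55, SE 0.089, adjusted p = 0.0487, edgeR) and with pyraclostrobin (by 0.56, SE 0.089, adjusted p = 0.0265) against DMSO, and was the 1 gene of this list called, beside 0.041% and 2.12% of all genes. It had 143 and 129.7 CPM in DMSO, 78.7 to 98.9 CPM with picoxystrobin and 84.4 to 99.7 CPM with pyraclostrobin. Azoxystrobin at 1000 nM (114 CPM) and trifloxystrobin (112 to 123 CPM) were below both DMSO libraries as well. How many of all genes were on 1 side of DMSO in this way was not counted. Leaving out 1 library kept the picoxystrobin call only without azoxystrobin 1000 nM, picoxystrobin 1000 nM or pyraclostrobin 1000 nM (lost in 12 of 15), and the pyraclostrobin call was lost without either DMSO library, picoxystrobin 30 nM or pyraclostrobin 300 or 1000 nM (5 of 15). With the GC and length correction the changes of Pprc1 were -0.29 and -0.35, and neither was called. Polrmt had a log2 change of -0.58 with picoxystrobin (adjusted p = 0.162) and -0.61 with pyraclostrobin (adjusted p = 0.0779, edgeR), and Tfam, which packages mitochondrial DNA and starts its transcription, had 0.32 (adjusted p = 0.218) and 0.21 (adjusted p = 0.316). Their slopes with pyraclostrobin were -0.12 (SE 0.206) for Polrmt and 0.09 (SE 0.125) for Tfam. Of 25 genes of the second list, 18 were tested, and Mettl15, which methylates the mt-Rnr1 RNA, rose in the pyraclostrobin trend (0.53 per 10-fold concentration, SE 0.121, adjusted p = 0.0419, edgeR), the 1 gene of this list called, beside 1.62% of all genes. The call was lost without either DMSO library, picoxystrobin 100 nM, any 1 of the pyraclostrobin libraries or trifloxystrobin 300 or 1000 nM (9 of 15), with slopes from 0.44 to 0.69. Mettl15 had 9.95 and 11.1 CPM in DMSO and 9.89, 12.4, 16.2 and 17.4 CPM with rising pyraclostrobin. Lrpprc, which stabilises mitochondrial mRNAs, had a slope of -0.10 (SE 0.097, adjusted p = 0.61) and lay between 44.1 and 58.3 CPM in all libraries. In the pyraclostrobin trend the median slope was -0.02 for the first list and -0.04 for the second.

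The nuclear genes most like the mean log2 CPM of the 8 mRNAs over the 15 libraries, by Pearson's r among 9748 genes, were Rab26os (r = 0.934), 2810013P06Rik (0.929), Hikeshi (0.897), Plac8 (0.892) and Gm14494 (0.883). Of the 8 mRNAs, mt-Co3 was at 0, mt-Atp6 at 0 or 1 count and mt-Co2 at 4.34 to 7.21 CPM. With mt-Nd4, r was 0.98 for mt-Nd2 and 0.99 for mt-Nd5, but 0.06 for mt-Nd1 and -0.18 for mt-Co1. The mean thus mainly follows mt-Nd2, mt-Nd4 and mt-Nd5. Those most like the mean of the 2 rRNAs were Entpd5 (r = 0.937), Jpt2 (0.937), Mdm2 (0.932), Pstk (0.930) and Glud1 (0.925). These values describe 15 libraries and were taken as the highest of many. Pyraclostrobin 300 and 1000 nM stood apart for both patterns, and picoxystrobin 1000 nM for the mRNAs only. At picoxystrobin 1000 nM the 2 rRNAs took 0.826% of the library, against 0.801% at picoxystrobin 300 nM.

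Total counts were 12292390 to 18188099 per library. Pyraclostrobin 300 and 1000 nM and picoxystrobin 1000 nM, with 15204035 to 17278217 counts, were within that range. The nuclear RNA Malat1 lay at 753 and 747 CPM at pyraclostrobin 300 and 1000 nM, above all other libraries. It had 546 CPM at picoxystrobin 1000 nM and 417 to 613 CPM in the other 12. Rn7sk lay at 9.72 to 13.0 CPM in the 3 named libraries and at 8.28 to 15.8 CPM in the other 12. The part of Malat1 and Rn7sk in the results was not tested. Of the library preparation RNAs, Neat1 (35.3 to 70.5 CPM) and Gm26917 (112 to 321 CPM) overlapped between the same libraries. AY036118, Rmrp and Rpph1 were at 0, and Rn45s and Rn18s-rs5 were not listed among the counted genes. The progenitor markers Vim (2521 to 3249.9 CPM), Nes and Sox2 were expressed, whereas Pax6 and Fabp7 were at or near 0. The neuronal Rbfox3 and Dcx, the astrocyte Aqp4 and the leukocyte Ptprc were at or near 0 as well. With Tubb3 and Map2 included, however, the 4 neuron markers had a sum of 129 to 160 CPM. The 4 astrocyte markers had a sum of 11.8 to 21.4 CPM. The 4 markers of the oligodendrocyte lineage had a sum of 1286 to 1685 CPM, of which Sox10 had 142 to 295 CPM. The 4 fibroblast and mesenchyme markers had a sum of 3638 to 7440 CPM. The label of neural cells thus holds for some markers of that kind and not for others. Thra, the gene of the overexpressed receptor, had 48.5 to 88.7 CPM. The number of mitochondrial genomes was not measured, and in bulk RNA it cannot be told apart from the RNA made from each. The members did not move together. At pyraclostrobin 1000 nM mt-Rnr1 was at 3.89, mt-Nd1 at 1.15 and mt-Nd4 at 0.376 of the DMSO mean, and the cause was not tested.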

How the data were processed

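RNA-seq (SENSE total RNA kit, NextSeq500, single-end) covered 16 samples of C17.2α cells. The authors aligned reads with Bowtie2 2.3.2.2 to mm10 (submitters' processing notes), counted them per gene with htseq-count, and deposited raw counts, 1 table per sample, without normalization or pooling. The annotation, the strand setting and the handling of reads that match several places are not given in the sources used here.

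Groups came from the labels, with 15 libraries used. Counts (genes with an average over 10 CPM) were TMM normalized and tested with edgeR 4.0.16 in R 4.3.3 (glmQLFit, glmQLFTest, Benjamini-Hochberg over all genes, threshold 0.05). Fits were 1 level per compound against DMSO, a slope on log10 concentration per compound, and pairs of compounds with concentration as a block. Differences between slopes were added after the data were seen. SE is the log2 change divided by the root of F. Intervals are 95%. DESeq2 1.42.0, other scalings and filters, a GC and length correction, and leaving out each library were alternatives. The test was tested on simulated data. CPM in the text are counts over the total count, with no TMM factor. Likeness used log2(CPM + 0.5).

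Positions and sequences are from GENCODE M21 transcripts (GRCm38, the build of the files), aligned with Biopython 1.88. Plots used matplotlib 3.10.9.

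All 10 members were named in every comparison, beside 2 nuclear lists (called genes, with Polrmt, Tfam and Lrpprc always), 5 genes per pattern of likeness, and markers. The members and lists were chosen with earlier results of these data known. The depth of 12292390 to 18188099 counts makes counting error small for the 7 tested members. The number of libraries limits the precision.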

Additional observations from a re-analysis of the deposited data

Results flagged for a closer look

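In groups of 4 libraries, 34 sets of values of the members, their shares and their ratios were examined for 1 library far from the other 3, which chance gives in about 1 of 20 groups. It was found in 2. The ratio of mt-Rnr2 to mt-Rnr1 was 2.97 at trifloxystrobin 100 nM, against 1.51 to 1.75 at the other 3 concentrations, where mt-Rnr1 was at 1815 CPM, its lowest value over all 15 libraries. The share of the library held by the members was 9.33% at pyraclostrobin 30 nM, against 9.15% to 9.17% at the other 3 concentrations, a set apart only because these 3 lie so close together.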

How the results depend on the processing

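Of 2044 log2 changes of the tested members under alternatives, 1943 kept their side of the threshold and their direction, counting a change of sign of an uncalled value only where it moved by more than 1 SE (70 sign changes were smaller), 21 lost and 46 gained a call, and 34 turned. The cause was not tested for any of them. Members called in the pyraclostrobin trend numbered 2 in the reported fit, 4 with DESeq2, 4 with the GC and length correction, 5 with no filter and 0 with the DMSO libraries left out. With no filter, members called were also 3 for pyraclostrobin against DMSO and 4 in the picoxystrobin trend. For the trend differences they were 4 for pyraclostrobin with picoxystrobin, 2 for trifloxystrobin with picoxystrobin and 5 for trifloxystrobin with pyraclostrobin. At matched concentrations they were 5 for pyraclostrobin with picoxystrobin and 6 for trifloxystrobin with pyraclostrobin. All of these were 0 in the reported fit. With no filter the SE of the pyraclostrobin slope was 0.0934 for mt-Nd4 and 0.0932 for mt-Rnr1, against 0.340 and 0.277 in the reported fit. The genes called over all under these settings follow below, their shares were not computed, and the added calls are not read as support. Leaving out 1 library gave 0 to 4 members in the pyraclostrobin trend, 0 to 3 in the picoxystrobin trend (3 without picoxystrobin 300 nM) and 0 to 1 for picoxystrobin against DMSO (mt-Co1, without picoxystrobin 1000 nM).

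Genes called in the pyraclostrobin trend were 289, and 742 with DESeq2, 439 with filterByExpr, 806 with the GC correction, 1246 with no filter, 190 with total counts only and 0 without DMSO libraries. For pyraclostrobin against DMSO they were 207, and 372 with azoxystrobin 100 nM kept, 921 with DESeq2, 104 with filterByExpr, 1195 with no filter and 106 with total counts only. For picoxystrobin against DMSO they were 4, and 9, 205, 0, 210 and 0 in that order, with 0 after the GC correction, and for azoxystrobin 0 and 1 with DESeq2. The picoxystrobin trend went from 0 to 1 with DESeq2 and 491 with no filter. The trend differences, from 0, reached 12 and 16 with DESeq2 for pyraclostrobin with picoxystrobin and with trifloxystrobin, and with no filter 228, 14 and 245. For pyraclostrobin with picoxystrobin at matched concentrations the 2 calls became 17 with DESeq2, 415 with no filter, 1 with total counts only and 663 without 1000 nM. For trifloxystrobin with picoxystrobin the 0 calls became 12, 28 and, without 1000 nM, 716. For trifloxystrobin with pyraclostrobin the 3 calls became 229, 818 and, with no concentration block, 1. Leaving out 1 library gave 0 to 1535 genes in the pyraclostrobin trend, 0 to 1247 for pyraclostrobin and 0 to 2660 for picoxystrobin against DMSO (all 3 highest without picoxystrobin 1000 nM), 0 to 1489 in the picoxystrobin trend and 0 to 709 for its difference from the pyraclostrobin trend (both highest without picoxystrobin 300 nM), 0 to 2 for the trend difference of trifloxystrobin with pyraclostrobin, and at matched concentrations 0 to 3 for pyraclostrobin with picoxystrobin, 0 to 1299 for trifloxystrobin with picoxystrobin (highest without picoxystrobin 1000 nM) and 0 to 232 for trifloxystrobin with pyraclostrobin (highest without trifloxystrobin 100 nM).

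With the GC and length correction mt-Nd1 turned to -0.20 and mt-Nd2 to -0.26 for picoxystrobin against DMSO, mt-Nd1 to -0.056 for pyraclostrobin against DMSO and to 0.22 in the picoxystrobin trend, mt-Co1 to -0.14 and mt-Nd1 to -0.086 in the trend differences of pyraclostrobin and of trifloxystrobin with picoxystrobin, and mt-Co1, mt-Nd1 and mt-Nd2 to 0.066, 0.14 and 0.17 for trifloxystrobin with picoxystrobin. Without 1000 nM mt-Rnr2 turned to 0.050 for trifloxystrobin with pyraclostrobin. Leaving out 1 library turned picoxystrobin slopes of mt-Co1 (-0.27 to 0.47), mt-Nd1 (-0.10 to 0.19), mt-Nd2 (-0.92 to 0.35), mt-Nd4 (-1.39 to 0.32), mt-Nd5 (-1.20 to 0.41) and mt-Rnr2 (-0.27 to 0.56), and trifloxystrobin slopes of mt-Nd1 (-0.043 to 0.19), mt-Rnr1 (-0.27 to 0.26) and mt-Rnr2 (-0.67 to 0.14). Trend differences of pyraclostrobin with picoxystrobin ran from -0.31 to 0.43 for mt-Co1, -1.12 to 0.15 for mt-Nd2, -1.60 to 0.0026 for mt-Nd5 and -0.028 to 1.07 for mt-Rnr2, and those of trifloxystrobin with picoxystrobin from -0.40 to 0.34 for mt-Co1, -0.11 to 0.22 for mt-Nd1, -0.42 to 0.85 for mt-Nd2, -0.35 to 1.36 for mt-Nd4, -0.46 to 1.14 for mt-Nd5 and -0.84 to 0.11 for mt-Rnr2. Trifloxystrobin with picoxystrobin ran from -0.30 to 0.14 for mt-Nd2, -0.47 to 0.25 for mt-Nd4 and -0.47 to 0.20 for mt-Nd5, and trifloxystrobin with pyraclostrobin from -0.043 to 0.50 for mt-Nd5 and -0.51 to 0.034 for mt-Rnr2. The median level of mt-Nd1 moved from 27811 to 30928 CPM per kb with a library size of nuclear genes only. No paired analysis by replicate number was possible because only the DMSO libraries carry such numbers, and pairs of compounds were matched by concentration. Of the members, counting error limits mt-Co2, mt-Co3 and mt-Atp6, and the number of libraries limits the other 7.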
